A study of Mus musculus with 4 samples.

Results

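ATP-binding cassette (ABC) transporters are membrane proteins that move drugs, lipids, peptides and metabolites using the energy of ATP. The genes described here are those whose symbol on the array platform begins with Abc, a subfamily letter from a to g, and a digit. The rule found 43 genes, read by 52 array features, among 16504 named genes. By subfamily there were 13 Abca, 9 Abcb, 9 Abcc, 3 Abcd, 1 Abce, 2 Abcf and 6 Abcg genes. They were sorted by role into 6 drug efflux pumps of the blood-brain barrier, 14 lipid transporters and 23 others.

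Male mice of the outbred ddY stock, aged 13 weeks and weighing 38 to 43 g, gave the frontal cortex RNA. An intraperitoneal injection was given once a day for 28 days, of 25 mg/kg chlorpromazine, 25 mg/kg thioridazine, 1.25 mg/kg olanzapine or 18.75 mg/kg quetiapine, doses that the labels trace to therapeutic equivalents. Each drug was taken up in acetic anhydride and saline, with acetic acid at 0.5% in the end. Control mice were injected with vehicle. Each drug has 1 dual-colour Agilent array, on which drug RNA in cyanine 5 was set against vehicle RNA in cyanine 3, so no drug has a replicate. The sources used here give neither the number of mice behind an array nor whether the arrays had a vehicle RNA in common. Values are log2 ratios of drug over vehicle. Reading the table as log10 before conversion, with red over green as the direction, is likely but not stated.

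In the brain these proteins have separate jobs. Of the efflux pumps, P-glycoprotein (Abcb1a in mice) and the breast cancer resistance protein Abcg2 sit largely in the endothelial cells of the blood-brain barrier. There they return many drugs to the blood. Lipid transporters of the A and G subfamilies load cholesterol and phospholipid onto apolipoproteins such as ApoE, and D subfamily members bring fatty acids into peroxisomes. Members of the E and F subfamilies do not transport and act in translation.

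The ratios of a gene depend on what the arrays could resolve. Over all genes the standard deviation of the log2 ratio was 0.33 under chlorpromazine, 0.47 under thioridazine, 0.59 under olanzapine and 0.43 under quetiapine. Accessions spotted at least 10 times gave a median standard deviation between spots of 0.06 to 0.16, a technical spread within an array. Of the 43 members, 39 were measured on all 4 arrays. Abca1 had no ratio with quetiapine, Abcb5 none with chlorpromazine, Abcc10 none with thioridazine or quetiapine, and Abca4 a ratio with olanzapine only. The table holds ratios and no signal levels, so the label of frontal cortex could not be checked against marker levels, and how far a spot lay above background is unknown.

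Promoter sequence is shown for 4 members whose ratios are compared in the following paragraphs: the paralogues Abcb1a and Abcb1b, which lay apart on the thioridazine and olanzapine arrays; Abca1, the member most above vehicle with chlorpromazine; and Abcg8, for which 1 of 2 windows overlaps that of its neighbour Abcg5. Each runs 5′ to 3′ on the gene's strand, from 250 bases before to 50 bases after the start annotated by RefSeq on GRCm38.p6. Capitals mark letters that match a searched motif.
Abcb1a, chr5:8566841-8567140, plus strand: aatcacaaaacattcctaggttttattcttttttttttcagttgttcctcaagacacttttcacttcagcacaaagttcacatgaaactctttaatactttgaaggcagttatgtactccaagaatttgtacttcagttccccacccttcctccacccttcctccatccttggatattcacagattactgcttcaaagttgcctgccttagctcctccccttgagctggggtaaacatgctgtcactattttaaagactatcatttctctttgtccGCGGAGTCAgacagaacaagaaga
Abcb1b, chr5:8797897-8798196, plus strand: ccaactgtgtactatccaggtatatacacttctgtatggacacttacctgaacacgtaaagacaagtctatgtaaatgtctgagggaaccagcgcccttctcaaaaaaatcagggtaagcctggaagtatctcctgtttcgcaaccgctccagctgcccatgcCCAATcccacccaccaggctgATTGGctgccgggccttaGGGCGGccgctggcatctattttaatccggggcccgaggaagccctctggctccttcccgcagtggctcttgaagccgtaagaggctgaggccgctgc
Abca1, chr4:53159846-53160145, minus strand: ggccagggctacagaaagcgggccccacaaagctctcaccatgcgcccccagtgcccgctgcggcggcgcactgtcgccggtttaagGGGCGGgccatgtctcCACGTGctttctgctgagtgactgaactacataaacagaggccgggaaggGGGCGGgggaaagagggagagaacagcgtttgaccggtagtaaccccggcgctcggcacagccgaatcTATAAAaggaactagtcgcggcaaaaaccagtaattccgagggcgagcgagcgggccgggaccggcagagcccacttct
Abcg8, chr17:84682871-84683170, plus strand: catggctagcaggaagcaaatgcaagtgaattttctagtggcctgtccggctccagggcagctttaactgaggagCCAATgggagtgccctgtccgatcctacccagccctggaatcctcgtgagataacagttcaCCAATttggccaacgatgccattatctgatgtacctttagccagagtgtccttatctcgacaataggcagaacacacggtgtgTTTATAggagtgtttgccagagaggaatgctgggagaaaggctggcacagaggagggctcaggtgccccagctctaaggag

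The motifs searched, on both strands, were the GC box GGGCGG, the TATA box TATAAA, the CCAAT box CCAAT, the E-box CACGTG, the antioxidant response element core TGACNNNGC and the DR4 nuclear receptor element, which is AGGTCA repeated after any 4 bases. RefSeq windows were found for 33 of the 43 members, 40 windows in all, since some genes have several starts. The GC box was in 20 of the 40 member windows and in 35.7% of all 32851 windows. The TATA box was in 17.5% and 13.6%, the CCAAT box in 30.0% and 37.4%, the E-box in 15.0% and 7.15%, and the antioxidant core in 17.5% and 12.4%. The exact DR4 letters were in 0 of the 40 member windows and in 5 of all 32851 windows, or 0.015%. Letters this rare would be missing from nearly any 40 windows, so the 0 says nothing about the members. Imperfect DR4 repeats were not searched, so a window without a mark may still hold one. Of the exact letters searched, the Abca1 window had a TATA box, an E-box and GC boxes, and that of Abcb1b had CCAAT boxes and a GC box. The Abcb1a window had only the antioxidant core, which lay after the start. The Abcg8 window shown and that of Abcg5, which is read from the other strand, share 209 bases. RefSeq gives Abcg8 a second window, chr17:84676052-84676351, with 0 motif matches and 0 bases shared with the Abcg5 window. A match describes letters and no binding.

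The efflux pumps lay on both sides of vehicle on every array. With olanzapine Abcc1, multidrug resistance-associated protein 1, which exports glutathione conjugates, was 20.4-fold above vehicle, while Abcb1a was 2.28-fold below. With thioridazine Abcg2 was 2.29-fold below vehicle. With chlorpromazine and quetiapine 0 of the 6 pumps were 2-fold from vehicle, on arrays where 1.69% and 3.74% of all genes were.

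Abcb1a, the P-glycoprotein of mouse brain endothelium, had log2 ratios of 0.65 under chlorpromazine, -0.83 under thioridazine, -1.19 under olanzapine and 0.40 under quetiapine. Chlorpromazine and quetiapine thus lay on 1 side of vehicle and thioridazine and olanzapine on the other. Its mean over the arrays was -0.24 (SE 0.36, 95% interval -1.17 to 0.68, limma adjusted p = 0.676), and without the olanzapine array it was 0.07. Abcb1b, its close paralogue, stood above vehicle on 4 of 4 arrays, at 0.18, 0.69, 0.39 and 0.81 in the same drug order. Its mean of 0.52 (SE 0.12) did not pass with limma (adjusted p = 0.118). Whether the features of these near-identical genes share hybridisation was not tested.

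Abcg2, the breast cancer resistance protein, read -0.14 under chlorpromazine, -1.20 under thioridazine, -0.14 under olanzapine and -0.15 under quetiapine. Thioridazine alone stood apart from 3 nearly equal values. The mean was -0.41 (SE 0.21, limma adjusted p = 0.282), or -0.14 without thioridazine. The 18 endothelial and pericyte markers had medians of 0.04 under chlorpromazine, 0.13 under thioridazine, -0.07 under olanzapine and 0.05 under quetiapine. Above 0 were 10, 13, 7 and 11 of these markers, against 51.4%, 50.9%, 52.2% and 50.9% of all genes. The marker ratios in that order ran from -0.22 to 0.68, -0.47 to 1.32, -0.75 to 1.29 and -2.31 to 0.90. The part of these markers in the pump values was not tested. In a piece of cortex, fewer cells of a type and less RNA per cell cannot be told apart.

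Abcc1 was at 0.32 under chlorpromazine, 0.93 under thioridazine, 4.35 under olanzapine and 0.38 under quetiapine. All 4 arrays were above 0, and olanzapine stood far above the other 3. That value is the highest of 16435 genes on the olanzapine array, comes from 1 feature and has no replicate. The mean was 1.49 (SE 0.76, limma adjusted p = 0.272), or 0.54 without the olanzapine array. Abcc4, which exports cyclic nucleotides and other organic anions, was at 0.17, 0.17, -0.93 and 0.53 in the order chlorpromazine, thioridazine, olanzapine, quetiapine. Its mean of -0.02 became 0.29 without olanzapine, the array on which it lay below vehicle. Abcc5, a relative with cyclic nucleotide substrates, was at -0.12, -0.13, 0.06 and -0.23 in that order, within 1.5-fold of vehicle throughout.

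**Figure D1:**
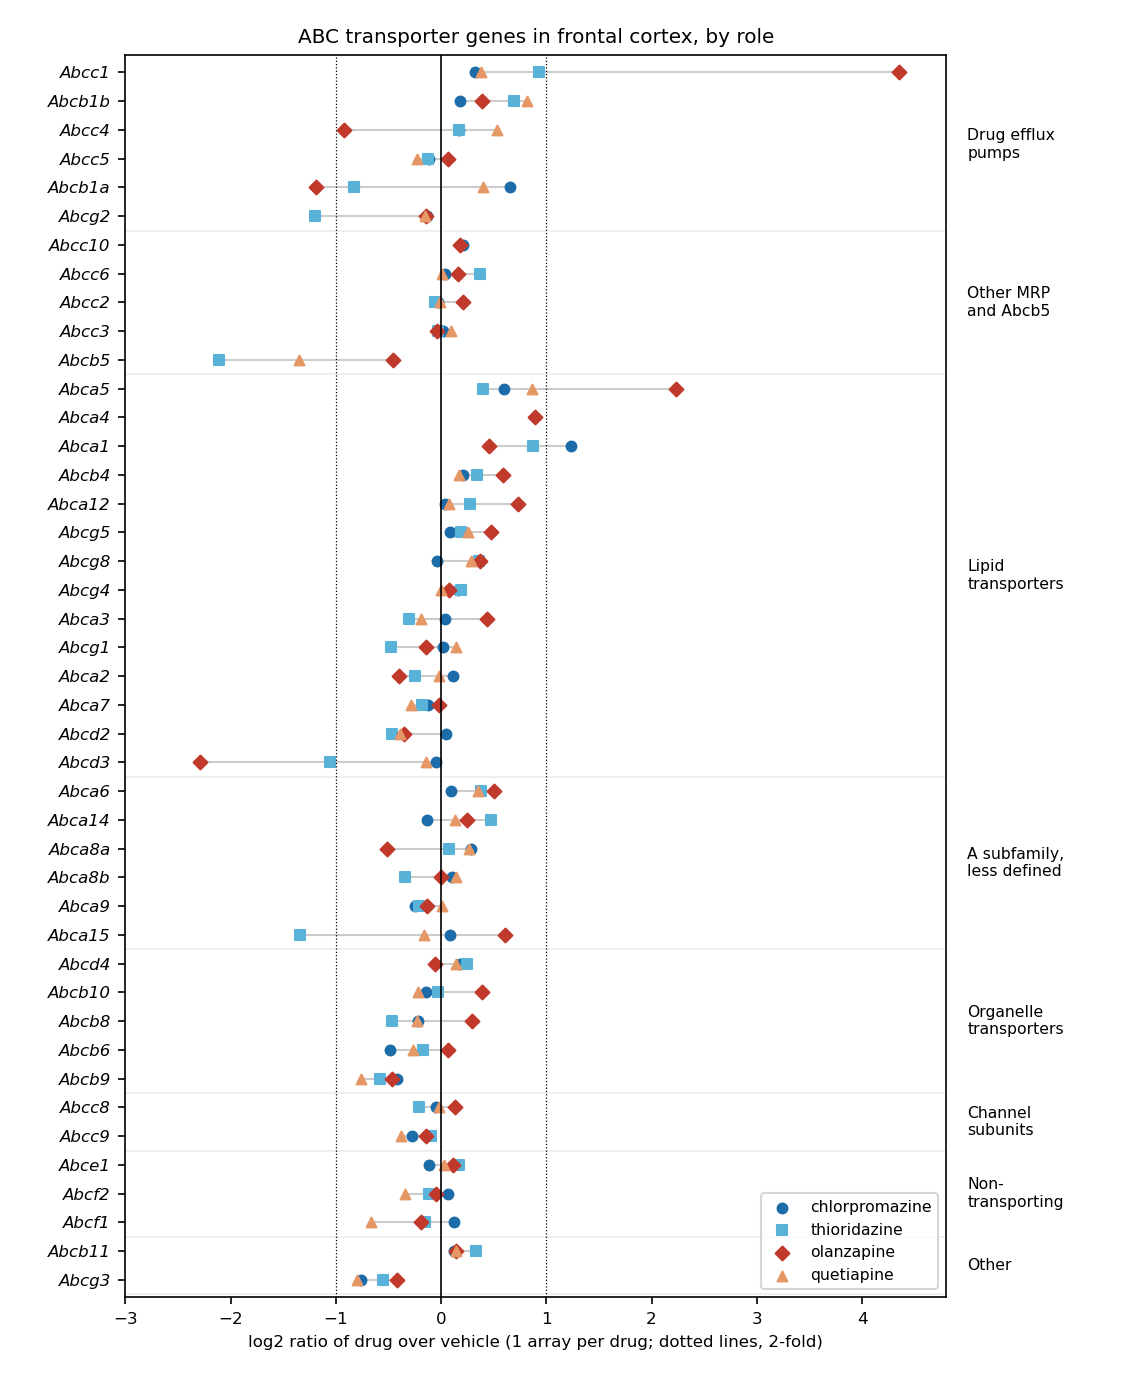
Log2 ratio of drug over vehicle (horizontal axis) for each of the 43 ABC genes (vertical axis), grouped by role and sorted by mean; each point is 1 array, the grey line spans the arrays and dotted lines mark 2-fold. Most points lie between the dotted lines, and Abcc1 with olanzapine, at 4.35, lies farthest from 0.

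Lipid transporters spread to both sides of vehicle as well. Abca5, a transporter of endosomes and lysosomes, and Abca1, the exporter that loads cholesterol onto apolipoproteins, had the highest means among those with 3 or more arrays. Abcd3, a peroxisomal importer of branched-chain acids, was the lowest. Over the 14 genes, 10 of 13 measured were above 0 with chlorpromazine, 7 of 13 with thioridazine, 9 of 14 with olanzapine and 6 of 12 with quetiapine. Of all genes, 51.4%, 50.9%, 52.2% and 50.9% were above 0 on those arrays.

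Abca1 was at 1.24 with chlorpromazine (2.36-fold above vehicle), 0.87 with thioridazine and 0.45 with olanzapine. All 3 measured arrays were above 0; on the quetiapine array its ratio was an exact 0 and was treated as missing, so it entered neither limma test. Abca5 was at 0.60 under chlorpromazine, 0.40 under thioridazine, 2.23 under olanzapine and 0.86 under quetiapine. Every array lay above 0, with olanzapine at 4.69-fold, and the mean was 1.02 (SE 0.33, limma adjusted p = 0.155). Without the olanzapine array the mean of Abca5 was 0.62. Abca4, a flippase known from photoreceptors, had only its olanzapine ratio of 0.90.

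Abcd3 was at -0.05 under chlorpromazine, -1.05 under thioridazine, -2.29 under olanzapine and -0.15 under quetiapine. Thioridazine and olanzapine were thus more than 2-fold below vehicle, and the other arrays were near it. Its mean was -0.88 (SE 0.41, limma adjusted p = 0.242), or -0.42 without olanzapine. Abcd2, a second peroxisomal importer of very long-chain fatty acids, was at 0.05, -0.47, -0.35 and -0.39 in the order chlorpromazine, thioridazine, olanzapine, quetiapine, averaging -0.29 (SE 0.10, limma adjusted p = 0.175). In both peroxisomal genes chlorpromazine was the array nearest to vehicle.

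Abcg5 and Abcg8 form a heterodimer that exports plant sterols and cholesterol in liver and gut. Abcg5 was at 0.08, 0.19, 0.48 and 0.26, and Abcg8 at -0.04, 0.36, 0.37 and 0.28, with chlorpromazine, thioridazine, olanzapine and quetiapine. Their means were nearly the same, 0.25 (SE 0.08, limma adjusted p = 0.158) and 0.24 (SE 0.09, limma adjusted p = 0.183). Abcg1, which passes sterols to lipoproteins, was at 0.02, -0.47, -0.14 and 0.14 in that order. Its close relative Abcg4 was at 0.17, 0.19, 0.08 and -0.00. Neither was 1.5-fold from vehicle on any array.

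The remaining lipid transporters, with values again in the order chlorpromazine, thioridazine, olanzapine, quetiapine, held some genes with 1 sign. Abcb4, which flips phosphatidylcholine into bile, was at 0.21, 0.35, 0.58 and 0.17, with a mean of 0.33 (limma adjusted p = 0.135). Abca12, known for epidermal lipids, was at 0.03, 0.27, 0.73 and 0.08. Both were above 0 on every array, most so under olanzapine. Abca7, a phospholipid transporter, was below 0 on all arrays, at -0.12, -0.18, -0.02 and -0.28. Abca2, an endosomal and lysosomal transporter abundant in oligodendrocytes, had values of 0.11, -0.24, -0.40 and -0.02, and only chlorpromazine was above 0. Abca3, known from lung surfactant, was at 0.04, -0.31, 0.43 and -0.19, with a mean of -0.01 whose sign turned when thioridazine or quetiapine was left out. Its 2 features read 0.79 and 0.07 with olanzapine, so its gene value there, 0.43, rests on features that differ.

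**Figure D2:**
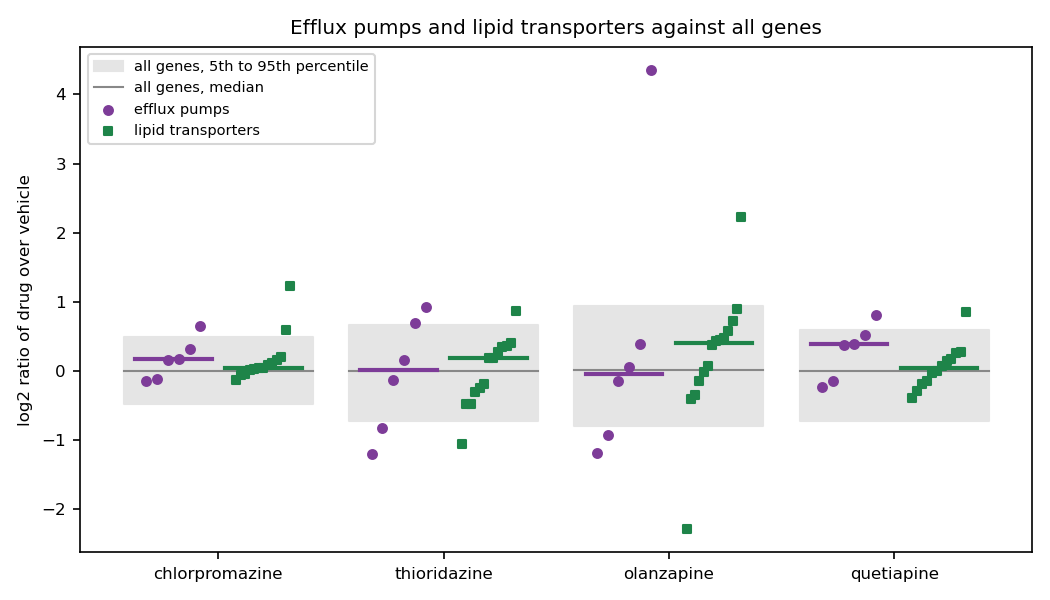
Log2 ratio of drug over vehicle (vertical axis) on each array for the 6 efflux pumps (circles) and the measured lipid transporters (squares), with their medians as bars and, in grey, the 5th to 95th percentile and median of all genes. With quetiapine the efflux median of 0.39 stood above the lipid median of 0.04, and with olanzapine the order was reversed, -0.04 against 0.40.

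The pumps and the lipid transporters were then set side by side. The efflux median was 0.17 under chlorpromazine, 0.02 under thioridazine, -0.04 under olanzapine and 0.39 under quetiapine. Above 0 were 4, 3, 3 and 4 of the 6 pumps, against 51.4%, 50.9%, 52.2% and 50.9% of all genes. The lipid median was 0.05, 0.19, 0.40 and 0.04 in the same order. Over all genes the median lay between 0.01 and 0.02 on every array. By median the efflux group thus stood above the lipid group with chlorpromazine and quetiapine and below it with thioridazine and olanzapine. By mean the order differed: in the same drug order the efflux means were 0.18, -0.06, 0.42 and 0.29, and the lipid means 0.18, -0.01, 0.22 and 0.06. The means were equal to 2 decimals with chlorpromazine, and with olanzapine the efflux mean, which takes in Abcc1, was the higher. With thioridazine both means lay on the other side of 0 from their medians, as did the efflux mean with olanzapine. With exact zeros kept as values in place of missing, the lipid median with thioridazine was 0.0945 and with quetiapine 0. No test of these differences was made, since each drug has 1 array and the groups hold few genes.

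By subfamily, medians in the order chlorpromazine, thioridazine, olanzapine, quetiapine were 0.09, -0.05, 0.43 and 0.08 for Abca and -0.01, -0.17, 0.14 and -0.22 for Abcb. Abcc had 0.02, -0.04, 0.13 and -0.00, and Abcg had -0.01, -0.14, -0.03 and 0.07. The 3 Abcd genes had 0.05, -0.47, -0.35 and -0.15. The 2 Abcf genes were above 0 with chlorpromazine and below 0 on the other 3 arrays, with a median of -0.50 with quetiapine. The Abca median with olanzapine was the subfamily value farthest above 0, on the array with the largest standard deviation over all genes, 0.59. In the same drug order 9 of 12, 6 of 12, 9 of 13 and 7 of 11 Abca genes were above 0. Of all genes 51.4%, 50.9%, 52.2% and 50.9% were.

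Among the other multidrug resistance-type members, Abcb5 was at -2.11 with thioridazine, -0.46 with olanzapine and -1.35 with quetiapine, with no chlorpromazine ratio. It was the lowest member on the thioridazine and quetiapine arrays, at 4.33-fold and 2.55-fold below vehicle. By contrast, Abcc10, the member of this group with the highest mean, was at 0.21 with chlorpromazine and 0.18 with olanzapine. Abcc2, an exporter of organic anions known from liver, and Abcc3 and Abcc6 stayed within -0.06 and 0.37.

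Of the A subfamily genes whose substrates are less defined, Abca15 was at 0.08 under chlorpromazine, -1.35 under thioridazine, 0.61 under olanzapine and -0.16 under quetiapine. Thioridazine alone was 2-fold from vehicle, and the mean of -0.20 became 0.18 without it. Abca6 was above 0 on all 4 arrays, at 0.10, 0.38, 0.50 and 0.35 in that order, averaging 0.33 (SE 0.08, limma adjusted p = 0.125).

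Among transporters of organelles, Abcb9, which carries peptides into lysosomes, was at -0.42 under chlorpromazine, -0.58 under thioridazine, -0.47 under olanzapine and -0.76 under quetiapine. All 4 arrays lay below vehicle within a range of 0.34. Its mean of -0.56 (SE 0.08, 95% interval -0.76 to -0.35) missed the threshold with a limma adjusted p of 0.0673. Abcg3, a relative of Abcg2 found in rodents, had values of like size, -0.76, -0.55, -0.42 and -0.80, and its mean of -0.63 (SE 0.09, 95% interval -0.86 to -0.41) had a limma adjusted p of 0.0670. These were the members nearest to passing. The mitochondrial Abcb6, Abcb8 and Abcb10 lay between -0.48 and 0.39, and Abcd4, which exports vitamin B12 from lysosomes, was at 0.18, 0.25, -0.06 and 0.14.

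Abcc8 and Abcc9 encode the sulphonylurea receptors, the regulatory subunits of ATP-sensitive potassium channels. In the order chlorpromazine, thioridazine, olanzapine, quetiapine, Abcc9 was at -0.28, -0.10, -0.14 and -0.38, with a mean of -0.22 (limma adjusted p = 0.155). Abcc8 was at -0.05, -0.21, 0.13 and -0.02. Abcc9 was thus below 0 on every array, and Abcc8 lay close to vehicle. Among members that do not transport, Abce1, which recycles ribosomes, was at -0.12, 0.17, 0.11 and 0.02. Abcf1, which acts in translation initiation, was at 0.12, -0.15, -0.19 and -0.67, with quetiapine the only array 1.5-fold from vehicle. Abcb11, the bile salt export pump of liver, was above 0 throughout, at 0.12, 0.33, 0.14 and 0.14.

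Counts by size were read against all genes of the same array. With chlorpromazine 1 of 41 members, Abca1, was at least 2-fold from vehicle, above vehicle, against 0.795% of all genes above and 1.69% in either direction. With thioridazine 4 of 41 were, all below vehicle (Abca15, Abcb5, Abcd3 and Abcg2), against 4.52% of all genes in either direction and 2.54% below. Olanzapine had 4 of 43, Abca5 and Abcc1 above and Abcb1a and Abcd3 below, against 4.64% above, 3.33% below and 7.97% in all. Quetiapine had 1 of 40, Abcb5, below vehicle, against 2.31% below and 3.74% in all. These are single arrays with few members past the threshold. At 1.5-fold the members numbered 4, 8, 8 and 6 in that order, against 6.91%, 13.4%, 17.4% and 12.6% of all genes.

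The change shared by the 4 drugs was tested in limma over 16139 genes as an array mean different from 0, with the drugs as replicates of treatment. No member of the 39 tested passed after Benjamini-Hochberg adjustment at 0.05, against 0.149% of all genes. Before adjustment, limma gave 11 of 39 a p under 0.05, against 26.2% of all genes. The ordinary t statistic gave 7 of 39, and the share of all genes by that statistic was not computed. The 11 by limma were Abca5, Abca6, Abcb11, Abcb1b, Abcb4, Abcb9, Abcc9, Abcd2, Abcg3, Abcg5 and Abcg8. All 4 arrays had 1 sign for 15 of 39 members, against 40.3% of all genes. Of these 9 were above vehicle, against 21.4%, and 6 below, against 18.9%. The median of the members' means was -0.02, beside 0.01 for all genes. A dye bias, or a vehicle RNA common to the arrays, cannot be told apart from a shared change.

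The drug classes were compared next, since the study set out to classify the drugs. Chlorpromazine and thioridazine are phenothiazines; olanzapine and quetiapine carry a diazepine or thiazepine ring. With 2 arrays in each class, no member passed with limma (0 of 39, as for all genes at 0%). Before adjustment 0 of 39 reached a p under 0.05, and 2.84% of all genes did. The class arrays did not overlap for 8 of 39 members, against 28.3% of all genes. Both phenothiazines were higher in Abcd4, Abcf1 and Abcg4, against 13.8% of all genes, and lower in Abca5, Abca9, Abcc2, Abcc8 and Abcg5, against 14.5%. The difference of largest size was in Abcc1, where the phenothiazines averaged 0.62 and the others 2.36 (difference -1.74, 95% interval -5.80 to 2.32). For Abcb1a the means were -0.09 and -0.40 (difference 0.31, 95% interval -1.90 to 2.52), and for Abcg2 -0.67 and -0.15 (difference -0.52, 95% interval -1.64 to 0.60). Intervals this wide leave differences of several-fold undetected. The doses in mg/kg also differ between the classes.

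The phenothiazine ring and the dose of 25 mg/kg are common to chlorpromazine and thioridazine; chlorpromazine carries a chlorine and an open-chain amine where thioridazine has a methylthio group and a piperidine. With 1 array each there is no test. Of 40 members measured on both, 4 lay at least 2-fold apart, against 4.38% of all genes in either direction. The 4 were Abcb1a, apart by 1.48 log2 units, Abca15 by 1.43, Abcg2 by 1.06 and Abcd3 by 1.0. All were higher with chlorpromazine, and the share of all genes in that direction was not computed at 2-fold. By any amount, 52.5% of members and 47.2% of all genes were higher with chlorpromazine. The median absolute difference was 0.24 over members and 0.19 over all genes. Olanzapine and quetiapine were given at different doses, and their values stand side by side in the preceding paragraphs.

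**Figure D3:**
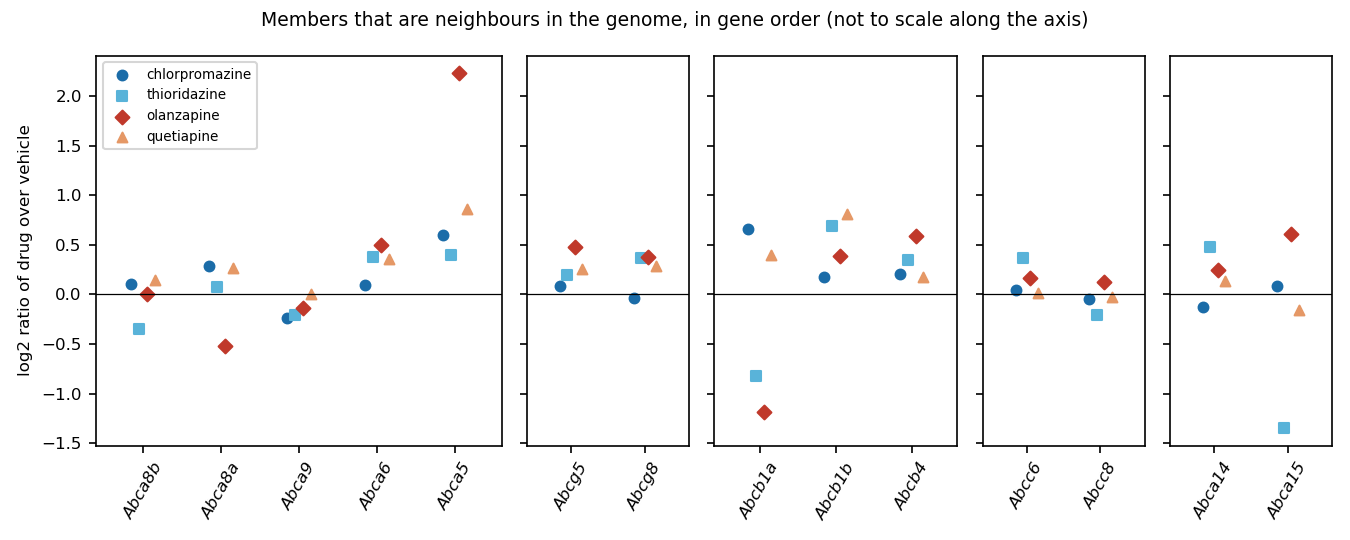
Log2 ratio of drug over vehicle (vertical axis) for members that are neighbours in the genome, in gene order within each panel (horizontal axis, not to scale); each point is 1 array. Abcb1a spans -1.19 to 0.65 beside Abcb1b and Abcb4, whose points are all above 0. Abca5 is above the other 4 genes of its cluster on every array, but nearly level with Abca6 with thioridazine, at 0.40 and 0.38.

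Several members lie next to each other, with gaps of at most 100000 bases in the RefSeq table, which gave 5 groups and 14 genes. In the group Abcb1a, Abcb1b and Abcb4, only the latter pair was above 0 on all arrays. In the A subfamily cluster of Abca8b, Abca8a, Abca9, Abca6 and Abca5, the values with olanzapine ran from -0.52 in Abca8a to 2.23 in Abca5. Abca5 had the highest value of the 5 on each array, though with thioridazine it was nearly level with Abca6, at 0.40 and 0.38. Abca14 and Abca15 differed with thioridazine, at 0.48 and -1.35. Of the other pairs, Abcg5 and Abcg8 lay farthest apart with thioridazine, at 0.19 and 0.36, and so did Abcc6 and Abcc8, at 0.37 and -0.21.

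**Figure D4:**
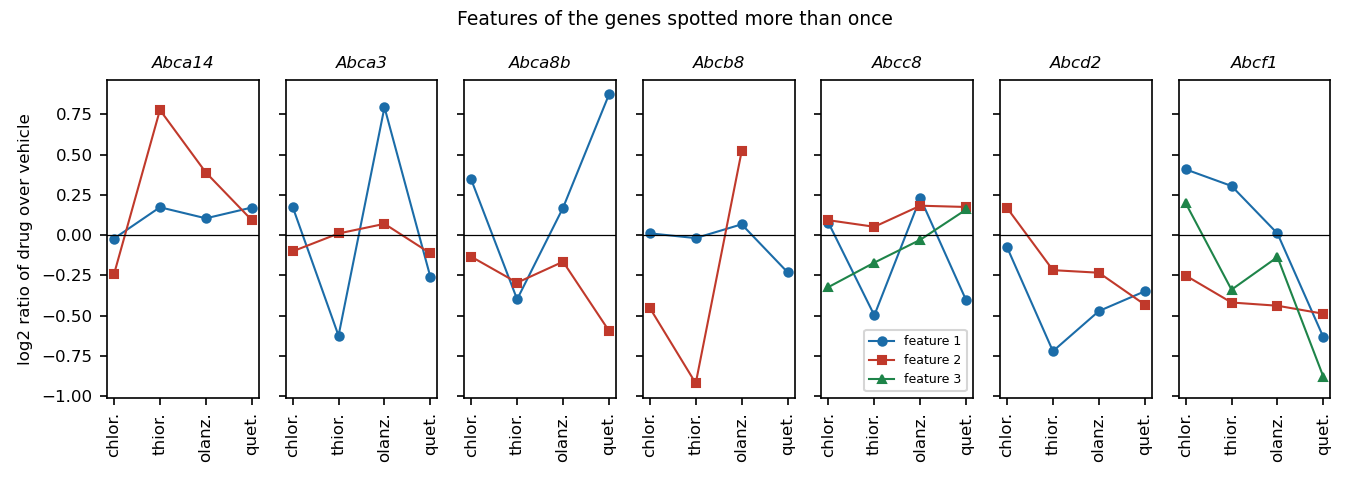
Log2 ratio of drug over vehicle (vertical axis) of each feature of the 7 genes read by more than 1 feature, on the chlorpromazine, thioridazine, olanzapine and quetiapine arrays (horizontal axis; lines join 1 feature). The features of Abca8b part most, at 0.87 and -0.59 with quetiapine.

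How far a single feature can be trusted is shown by the 7 members with several. The features of Abca8b differed by 1.47 on the quetiapine array, those of Abcb8 by 0.90 with thioridazine, and those of Abca3 and Abcf1 by up to 0.72. The largest differences of Abca14, Abcc8 and Abcd2 were 0.60, 0.58 and 0.50. The other 36 members rest on 1 feature, and these include all 8 members that were 2-fold from vehicle on any array.

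ABC genes with other symbols, and genes that act with the family, were read from lists made for this tissue. Of Tap1, Tap2 and Cftr, none passed with limma in the shared change, and 2 of the 3 had an unadjusted p under 0.05, against 26.2% of all genes. Tap2, of antigen peptide transport, was at 1.65 under chlorpromazine, 2.39 under thioridazine, 2.17 under olanzapine and 0.50 under quetiapine, all above vehicle, averaging 1.68 (SE 0.34, limma adjusted p = 0.0991). Tap1, its partner in the transporter, was below 0 on all 4 arrays, at -0.27, -0.02, -0.08 and -0.47, with a mean of -0.21 (limma adjusted p = 0.228).

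Among 13 nuclear receptors and other regulators of ABC genes, 0 passed and 3 had an unadjusted p under 0.05, against 26.2% of all genes. Values follow in the order chlorpromazine, thioridazine, olanzapine, quetiapine. The xenobiotic receptor Nr1i2 was at 0.12, 0.62, 1.04 and 0.42, averaging 0.55, and the aryl hydrocarbon receptor Ahr at -0.29, -0.76, -0.74 and -0.12, averaging -0.48 (limma adjusted p = 0.142 for each). Each kept 1 side of vehicle on all arrays. Of 15 partners in cholesterol efflux, 0 passed and 4 reached that p, against the same share of all genes. The lipocalin Apod was at 0.83, 1.32, 0.45 and 1.43, averaging 1.0 (limma adjusted p = 0.0926), and the phospholipid transfer protein Pltp at -0.45, -0.25, -0.49 and -1.40, averaging -0.64 (limma adjusted p = 0.155). Of 10 solute carriers of the barrier 0 passed and 4 reached that p, again beside 26.2% of all genes. All these lists are short, and none was tested against that share. Slc2a1, which carries glucose across the barrier, was at 0.62, 1.34, 0.48 and 1.75, averaging 1.05 (limma adjusted p = 0.113), and the thyroid hormone transporter Slco1c1 at -0.20, -0.38, -0.20 and -0.75, averaging -0.38 (limma adjusted p = 0.147).

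Markers of other cells also differed between arrays. The 4 red blood cell markers had medians of -0.11, 1.03, -1.30 and 0.32 for chlorpromazine, thioridazine, olanzapine and quetiapine, and the 8 neutrophil markers had -0.07, 0.52, 0.26 and 2.67. The 7 choroid plexus markers had medians between 0.11 and 0.22, and the 10 microglia markers ran from a median of -0.40 with chlorpromazine to 0.29 with thioridazine. Neuron markers lay between -0.18 and -0.04, astrocyte markers between -0.10 and 0.15 and oligodendrocyte markers between -0.06 and 0.23. Their part in the ratios of ABC genes was not tested.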

How the data were processed

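Frontal cortex RNA was measured on 4 dual-colour Agilent arrays, 1 per drug. Per the labels, the authors read the images with Agilent Feature Extraction Software 7.1, with LOWESS normalisation of the dyes after a filter on rank consistency. The deposited values were taken as log10 ratios of drug over vehicle; scale, direction and centring are not stated for the table, whose medians were 0 on 3 arrays and 0.00376 on the olanzapine array. Values of exactly 0 (198 to 594 an array) were treated as missing, ratios were converted to log2, and features were averaged per gene. Of 22393 features 18218 had 1 symbol, 16 several and 4159 none; 18175 took a current RefSeq symbol. Tests used limma 3.58.1 in R 4.3.3 on 16139 genes measured on all arrays, with Benjamini-Hochberg adjustment at 0.05. Their calculation was checked on simulated normal values with 1 spread for all genes and arrays, unlike these data. No label calls the arrays separate animals of 1 group; the p-values therefore measure only how far arrays differ, and their number limits the precision. Members and lists were chosen with earlier results of these data known. Named are every efflux pump and lipid transporter, and every member 2-fold from vehicle on any array or passing a test. So are the highest and lowest mean of each other role. In the lists of other genes the 2 members with the largest absolute mean are named. Other members are named where they belong to a group described. Alternatives were exact zeros kept, features apart, arrays centred or scaled, values read as log2, current symbols, 1.5-fold, each array left out, robust moderation and an ordinary t statistic.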

Additional observations from a re-analysis of the deposited data

Results flagged for a closer look

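For each of the 39 members measured on all arrays, the array farthest from the rest was compared with Dixon's 95% critical value for 4 values, the 4 drugs being taken as 1 group of treated arrays. About 1 in 20 groups is flagged where the 4 values come from 1 normal population. Here 4 of 39 were flagged, but arrays of different drugs are not such a population. The share of all genes flagged was not computed, so the count was not set against chance. All flags fell on the thioridazine and olanzapine arrays, whose standard deviations over all genes were the largest, 0.47 and 0.59. Abcc1 stood at 4.35 with olanzapine (ratio 0.850). Abcg2 stood at -1.20 with thioridazine (ratio 0.990). Abcb11 stood at 0.33 with thioridazine (ratio 0.917), and Abcc2 at 0.20 with olanzapine (ratio 0.831). Each comes from 1 feature. The arrays hold different drugs, so a value that stands apart may belong to the drug, the animals or the spot, which cannot be told apart here.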

How the results depend on the processing

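No member passed in the shared change or in the class difference with exact zeros kept, features apart, or arrays centred or scaled (0 to 0 members). The same held with robust moderation, an ordinary t statistic or current symbols. With any array left out, no member passed the shared change, and 0 of all genes did. For the shared change, 6 to 10 members had an unadjusted limma p under 0.05 with an array left out. The other limma settings gave 9 to 13 members, and the ordinary t statistic gave 7 by its own unadjusted p. For the class difference, limma settings that kept all 4 arrays gave 0 to 1. With an array left out 1 class holds 1 array, so no class counts are given for those fits. How stable the class count is to leaving out an array is therefore not shown. Counts of members 2-fold from vehicle depend on the reading of the table: as log2 they came to 1 for olanzapine and 0 for each other drug. With arrays scaled to one spread the chlorpromazine count was 2 and the olanzapine count 3, and at 1.5-fold the counts were 4, 8, 8 and 6. Read as log2, the efflux median was 0.0519 with chlorpromazine and 0.12 with quetiapine, and the lipid median with olanzapine was 0.12; scaled, the efflux median with chlorpromazine was 0.24. These shifts follow from the change of scale. With exact zeros kept, the lipid median was 0.0945 with thioridazine and 0 with quetiapine. The share of all genes whose mean log2 ratio turns sign with 1 array left out was not computed. Of the 39 members measured on all arrays, 11 turned sign in this way. Of the members named by rule these were Abca15 (-0.47 to 0.18), Abca3 (-0.152 to 0.0943), Abcb1a (-0.539 to 0.0742), Abcc4 (-0.20 to 0.29), Abcc8 (-0.0935 to 0.0178) and Abcg1 (-0.197 to 0.00817). The others, computed after the data were seen, were Abca8a, Abca8b, Abcb10, Abcc2 and Abcc3, whose means over all arrays lay between -0.02 and 0.03. No paired analysis was possible because each drug has 1 array.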
